A study of Mus musculus with 16 samples.

Results

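The galectin family was followed through RNA sequencing of liver and white adipose tissue from obese mice treated with halofuginone or vehicle. The family was represented by 6 of the 22322 genes in both deposited tables: Lgals1, Lgals3, Lgals4, Lgals8 and Lgals9, which encode galectins 1, 3, 4, 8 and 9, and Lgals3bp, which encodes the secreted galectin-3 binding protein. They were found by gene symbol, and the family was chosen on readout, because Lgals1 had 1 of the clearest falls among all genes in the liver comparison. The liver differences of the 6 genes are therefore a description, no test of them is used as support, and the tests of the 6 are those in fat, whose libraries the choice did not use.

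The mice were DIO (diet-induced obese), and all 4 groups shared that background and tissue was taken after 8 weeks. The groups labelled HFD received vehicle and the groups labelled H100 received 100 μg/kg of halofuginone, in both cases by intraperitoneal injection every 2 days. There were 5 libraries per group for liver and 3 per group for white adipose tissue. Halofuginone is a plant alkaloid derivative that blocks prolyl-tRNA synthetase. The labels give no strain, sex, age or fat depot, and the genotype field holds only the group name. They do not say whether each library came from a separate animal, so p-values measure only the spread between these libraries. Nor do they say whether liver and fat libraries came from the same animals, so the fat tests may not be independent of the liver choice.

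Galectins are small lectins that are made in the cytosol without a signal peptide, reach the outside by an unconventional route and bind beta-galactosides on glycoproteins and glycolipids. Prototype galectins such as galectin-1 carry a single carbohydrate-binding domain and pair up, galectin-3 is a chimera of such a domain with a flexible tail and can form larger clusters, and tandem-repeat galectins such as 4, 8 and 9 carry a pair of different domains in 1 chain. In liver and fat, galectin-1 and galectin-3 are best known from mesenchymal cells and macrophages, and galectin-3 has been studied in fibrosis and obesity.

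The sequence upstream of the start site was available for 5 of the 6 genes, as RefSeq promoters on GRCm38.p6. Of these, 4 are shown as the 250 bases before the start, read 5′ to 3′ along the gene: Lgals3 and Lgals8, the genes described with Lgals1 in most detail for liver, and Lgals3bp and Lgals9, because each holds a match to a searched motif. The motifs, searched on both strands, were TGATGNAA, the form of the element bound by ATF4 with a C/EBP partner in the amino acid response, and the core of the interferon-stimulated response element, which is GAAA, any 2 bases and GAAA again. Capitals mark the matches.
Lgals3, chr14:47373610-47373859, plus strand: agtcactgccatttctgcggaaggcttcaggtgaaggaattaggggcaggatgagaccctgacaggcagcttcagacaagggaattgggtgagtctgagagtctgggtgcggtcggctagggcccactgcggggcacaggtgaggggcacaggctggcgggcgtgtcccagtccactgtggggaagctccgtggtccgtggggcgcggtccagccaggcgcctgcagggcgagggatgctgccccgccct
Lgals8, chr13:12461739-12461988, minus strand: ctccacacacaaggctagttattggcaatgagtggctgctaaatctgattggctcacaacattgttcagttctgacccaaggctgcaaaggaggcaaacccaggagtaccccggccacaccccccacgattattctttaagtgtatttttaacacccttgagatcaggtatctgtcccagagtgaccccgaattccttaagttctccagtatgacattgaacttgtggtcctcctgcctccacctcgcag
Lgals3bp, chr11:118401960-118402209, minus strand: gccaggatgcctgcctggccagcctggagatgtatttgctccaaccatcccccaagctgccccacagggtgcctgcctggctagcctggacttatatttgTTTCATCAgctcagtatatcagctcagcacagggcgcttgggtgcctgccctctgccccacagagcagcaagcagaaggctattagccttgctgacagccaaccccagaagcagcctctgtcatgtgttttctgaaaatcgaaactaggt
Lgals9, chr11:78984925-78985174, minus strand: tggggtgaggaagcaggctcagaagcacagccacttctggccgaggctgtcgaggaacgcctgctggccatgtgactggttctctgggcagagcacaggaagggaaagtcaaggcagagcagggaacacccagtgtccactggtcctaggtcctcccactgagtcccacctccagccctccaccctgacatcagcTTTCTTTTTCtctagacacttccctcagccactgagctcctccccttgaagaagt
The Lgals3bp window held TGATGNAA on the opposite strand, which 3.45% of 32851 mouse promoters of this length also held. The Lgals9 window held the interferon element's core on the opposite strand, against 2.98% of those promoters. Neither motif was in the windows of Lgals3, Lgals4 and Lgals8, and a match is only a string of letters, not a bound site. Base composition ranged widely within the family, from 49.2% GC with 4 CpG dinucleotides for Lgals8 to 66.0% GC with 13 CpG dinucleotides for Lgals3.

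The liver libraries held 20309956 to 31980683 counts each, the fat libraries 17070614 to 21387799. The first principal component of liver (56.2% of the variance) put the vehicle libraries at −36.0 to −28.3 and halofuginone replicates 2 to 5 at 32.4 to 58.0, but halofuginone replicate 1 at −23.3, next to vehicle. Fold changes of genes that put this library with vehicle, and that of Lgals1, are given with and without it. In fat the first component (39.4%) did not separate the groups. The labelled tissues matched their markers: the hepatocyte list summed to 122419 to 134838 CPM in vehicle livers, and the adipocyte list to 13255 to 25555 CPM in vehicle fat. In liver the adipocyte genes Adipoq, Plin1 and Retn had at most 3 counts in any library and Lep had 0. The rest of that list was present in vehicle livers. Pnpla2, Cidec, Fabp4, Lipe and Cfd averaged 75.8, 57.0, 20.7, 17.8 and 13.8 CPM there, and the whole list summed to 144 to 220 CPM.

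In vehicle livers Lgals9 was the most abundant of the 6 genes, and in vehicle fat Lgals3 and Lgals1 were. Levels between genes are compared in FPKM, which divides by gene length. In liver, galectin-9 mRNA stood at 259 ± 28.6 FPKM (SD, n = 5). Lgals8 (53.9 ± 2.64), Lgals1 (50.1 ± 16.4) and Lgals3bp (44.5 ± 5.99 FPKM) followed. Lgals1 did not differ from either neighbour beyond its spread, while Lgals8 was above Lgals3bp in each of the 5 livers. Lgals3 was lower at 12.1 ± 3.19 FPKM, and Lgals4, whose product is best known from gut epithelium, was lowest at 2.54 ± 0.499 FPKM.

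In vehicle fat, Lgals3 stood at 1764 ± 614 FPKM (SD, n = 3) and Lgals1 at 1374 ± 237 FPKM, with overlapping libraries. Lgals3bp was at 195 ± 40.9 FPKM. Lgals9 (46.9 ± 9.70), Lgals12 (45.5 ± 18.6) and Lgals8 (33.8 ± 6.55 FPKM) lay within each other's spread, and Lgals4 was lowest of the 6 at 3.57 ± 1.31 FPKM. The vehicle mean of Lgals3 was 146 times, that of Lgals1 27.4 times and that of Lgals3bp 4.37 times higher in fat than in liver, while that of Lgals9 was 5.52 times and that of Lgals8 1.59 times higher in liver. These ratios set 2 separately made tables side by side and carry no test.

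**Figure D1:**
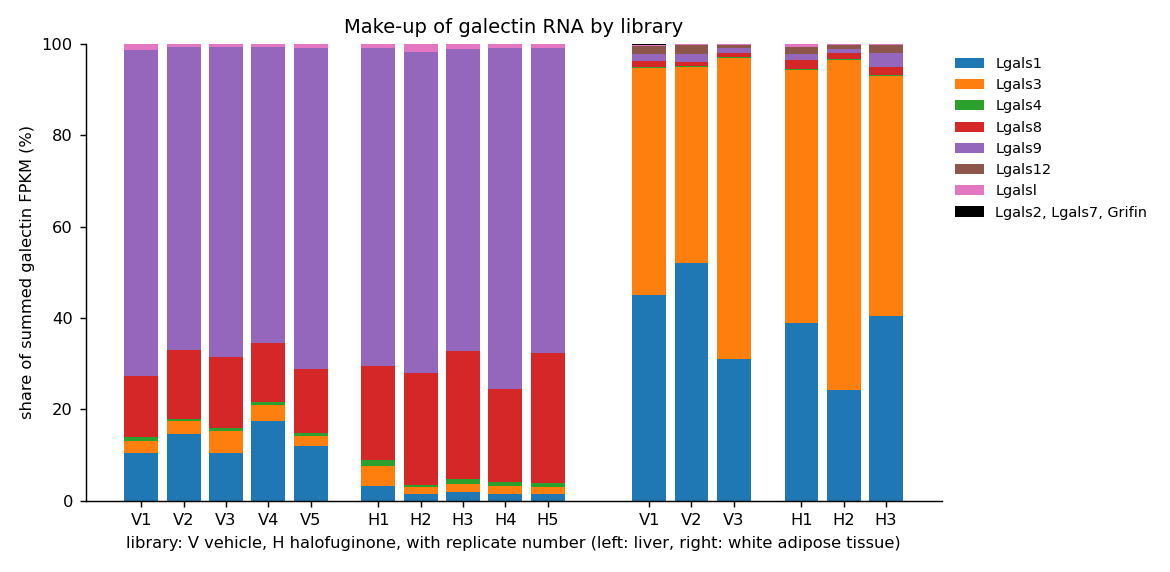
Share of summed galectin FPKM (%, y axis) taken by each galectin gene in each library (x axis; V vehicle, H halofuginone; liver on the left, white adipose tissue on the right; Lgals3bp is not a lectin and is left out). Lgals9 takes most of every liver bar, the Lgals1 band shrinks from 13.0% to 1.89% and the Lgals8 band grows from 14.2% to 24.5% under halofuginone, and Lgals3 and Lgals1 fill nearly all of every fat bar.

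As shares of the summed FPKM of the galectin genes, the liver mix under halofuginone held less galectin-1 and more galectin-8 mRNA. Lgals9 made up 68.1 ± 2.75% in vehicle livers and 69.4 ± 3.45% under halofuginone (SD, n = 5 each). Lgals1 made up 13.0 ± 2.98% and 1.89 ± 0.739%, and Lgals8 14.2 ± 1.05% and 24.5 ± 3.89%. The sum itself was 381 ± 43.6 FPKM in vehicle and 374 ± 60.7 FPKM under halofuginone, less apart than the spread between libraries. In fat, Lgals3 and Lgals1 made up 53.0 ± 11.7% and 42.7 ± 10.6% in vehicle (n = 3), and 60.0 ± 10.6% and 34.6 ± 8.90% under halofuginone (n = 3), with overlapping ranges.

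The liver comparison asked which genes differed between halofuginone and vehicle, and within the family it separated the genes into a large drop of Lgals1, a smaller one of Lgals3, a gain of Lgals8 and differences within or near the spread between libraries for Lgals3bp, Lgals4 and Lgals9. Values are CPM, in which counts are brought to the same library size, and fold changes are log2 of halofuginone over vehicle with their standard error (SE).

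Lgals1, the prototype galectin, was at 34.7, 43.9, 30.8, 62.4 and 38.2 CPM in vehicle livers 1 to 5 and at 6.95, 4.29, 5.19, 4.94 and 4.24 CPM under halofuginone. All 5 treated livers lay far below the lowest vehicle liver, and vehicle replicate 4 was the highest of all. The means of 42.0 ± 12.4 and 5.12 ± 1.10 CPM (SD, n = 5) were 8.20-fold apart, with a log2 fold change of −3.04 (SE 0.21). Without halofuginone replicate 1 it was −3.19. Halofuginone replicate 1, which lay next to vehicle over all genes, was the highest treated library in Lgals1 but stood with the other treated livers. These values rest on 5248 counts in vehicle and 642 under halofuginone. In bulk tissue, fewer cells of a type that makes galectin-1 and less Lgals1 RNA per cell cannot be told apart.

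Lgals3, the chimera galectin and a gene strongly expressed by macrophages, was at 12.1, 12.5, 19.9, 17.9 and 10.9 CPM in vehicle livers and at 13.6, 7.19, 7.51, 8.22 and 6.55 CPM under halofuginone. Replicates 2 to 5 lay below every vehicle liver, while replicate 1 lay inside the vehicle range. The log2 fold change was −0.77 (SE 0.23), and −1.01 without replicate 1.

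Lgals3bp, whose product binds galectin-3 and galectin-1 outside the cell, ranged from 94.6 to 123 CPM in vehicle livers and from 80.3 to 111 CPM under halofuginone. The groups overlapped, and the log2 fold change was −0.19 (SE 0.11).

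Lgals8, a tandem-repeat galectin that binds damaged endosomes and lysosomes, was at 141, 143, 144, 150 and 143 CPM in vehicle livers, which lay close together. Under halofuginone it was at 141, 233, 245, 215 and 255 CPM. Replicates 2 to 5 were above every vehicle liver, and replicate 1 was level with vehicle. The log2 fold change was 0.60 (SE 0.15), and 0.70 without replicate 1. Lgals3 and Lgals8 thus both placed replicate 1 with vehicle, and Lgals1 did not.

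Lgals9, a tandem-repeat galectin known as a ligand of the T cell receptor Tim-3, was at 378 to 451 CPM in vehicle livers and 290 to 475 CPM under halofuginone. Its log2 fold change was −0.15 (SE 0.14), and 0.0031 when scaled by library size alone. Lgals4 ranged from 2.2 to 3.68 CPM in vehicle and from 2.46 to 4.63 CPM under halofuginone, with a log2 fold change of 0.23 (SE 0.21). Both groups of each gene overlapped.

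**Figure D2:**
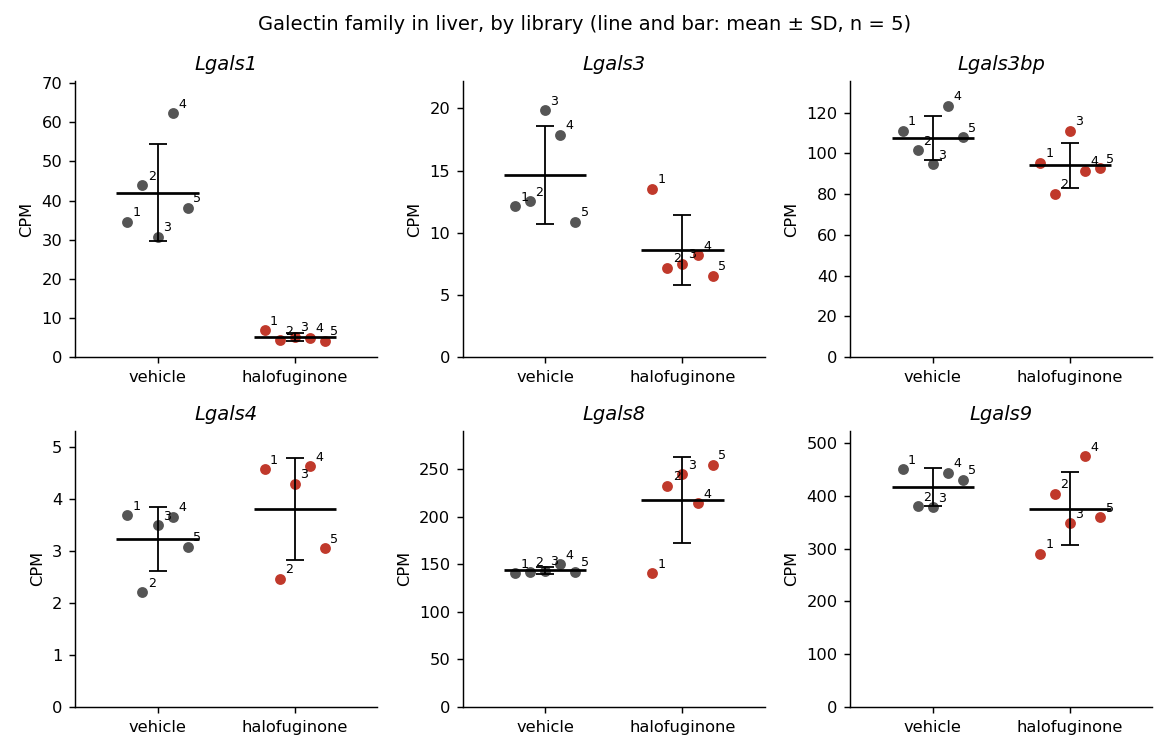
Level in CPM (y axis, from 0) of the 6 genes in each liver library, vehicle in grey and halofuginone in red, with replicate numbers beside the points and the mean ± SD of 5 libraries as a line and bar. The groups are apart only for Lgals1, and halofuginone replicate 1 sits with vehicle for Lgals3 and Lgals8.

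In the liver fit, edgeR called 2 of the 6 lower (Lgals1 and Lgals3), against 10.5% of 12311 genes tested, and 1 higher (Lgals8), against 12.7%. That is 3 of 6, where 23.2% of all genes were called. The groups did not overlap for 1 of the 6, Lgals1, against 11.7% of all genes. The call of Lgals3 ended when any 1 of vehicle replicates 2 to 4 or of halofuginone replicates 2 to 5 was left out. Since this contrast served to choose the family, nothing is read from these counts. The median log2 fold change of the 6 was −0.17, beside 0.02 over all genes. Scaling by library size alone moved the median of all liver genes by 0.16 on the log2 scale.

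The fat comparison asked the same question in white adipose tissue. Here edgeR called none of the 6 genes, and 0.0% of 14030 genes overall. At an unadjusted p under 0.05 it gave 3 of the 6 (Lgals1 lower, Lgals4 and Lgals8 higher), against 13.4% of all genes, and the same 3 had groups that did not overlap, against 20.6%. The other tools called 665 genes (DESeq2) and 13 genes (limma on log2(FPKM + 1)) in fat, none of them among the 6. The median log2 fold change of the 6 was 0.09, beside 0.01 over all genes.

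Lgals1 in fat was at 1081, 1280 and 988 CPM in vehicle replicates 1 to 3 and at 766, 867 and 842 CPM under halofuginone. Each treated library was below each vehicle library. The log2 fold change was −0.44 (SE 0.17), with an unadjusted p of 0.0401 and an adjusted p of 0.349 in edgeR, so it did not pass. In liver the corresponding value was −3.04, and the difference between the tissues was not tested.

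Lgals3 in fat was at 1775, 1553 and 3078 CPM in vehicle and at 1573, 3720 and 1604 CPM under halofuginone. A single library in each group, vehicle replicate 3 and halofuginone replicate 2, stood well above the rest of its group, and the groups overlapped widely. The log2 fold change was 0.11 (SE 0.43, adjusted p = 0.945 in edgeR), and it ranged from −0.39 to 0.47 as single libraries were left out. The same libraries were the highest of their group in the summed lipid-associated macrophage markers, a list headed by Trem2 and Gpnmb. That sum was 8423, 6080 and 22979 CPM in vehicle and 6468, 11346 and 5616 CPM under halofuginone, and its part in the Lgals3 level was not tested.

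Lgals3bp in fat was at 468, 537 and 378 CPM in vehicle and at 225, 279 and 587 CPM under halofuginone. Lgals9 was at 73.1, 84.9 and 60.3 CPM and at 48.1, 60.1 and 120 CPM. The libraries fell in the same order for both genes, with vehicle replicate 2 and halofuginone replicate 3 at the top of their groups, and these were also the lowest libraries of their groups on the first principal component. Over the 6 fat libraries, which share depth and tissue make-up, Pearson's r between both genes was 0.91, and 1.00 with the group means removed. Neither differed between the groups in edgeR (log2 fold change −0.34, SE 0.37, adjusted p = 0.749 for Lgals3bp, and 0.066, SE 0.35, adjusted p = 0.958 for Lgals9).

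Lgals8 in fat was at 91.2, 66.9 and 104 CPM in vehicle and at 125, 141 and 114 CPM under halofuginone, with no overlap. The log2 fold change of 0.53 (SE 0.20) stood at an unadjusted p of 0.0347 and an adjusted p of 0.334 in edgeR. In liver the value was 0.60.

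Lgals4 in fat was at 4.44, 5.66 and 2.83 CPM in vehicle and at 8.55, 14.2 and 6.73 CPM under halofuginone, also without overlap. Its log2 fold change of 1.19 (SE 0.39) was the largest among the 6 in fat, from 225 counts in vehicle and 584 under halofuginone, with an unadjusted p of 0.0182 and an adjusted p of 0.284 in edgeR. Mice carry a close copy of this gene, Lgals6, in some strains, and how the authors' counting treated reads shared by such copies is not given in the sources used here.

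**Figure D3:**
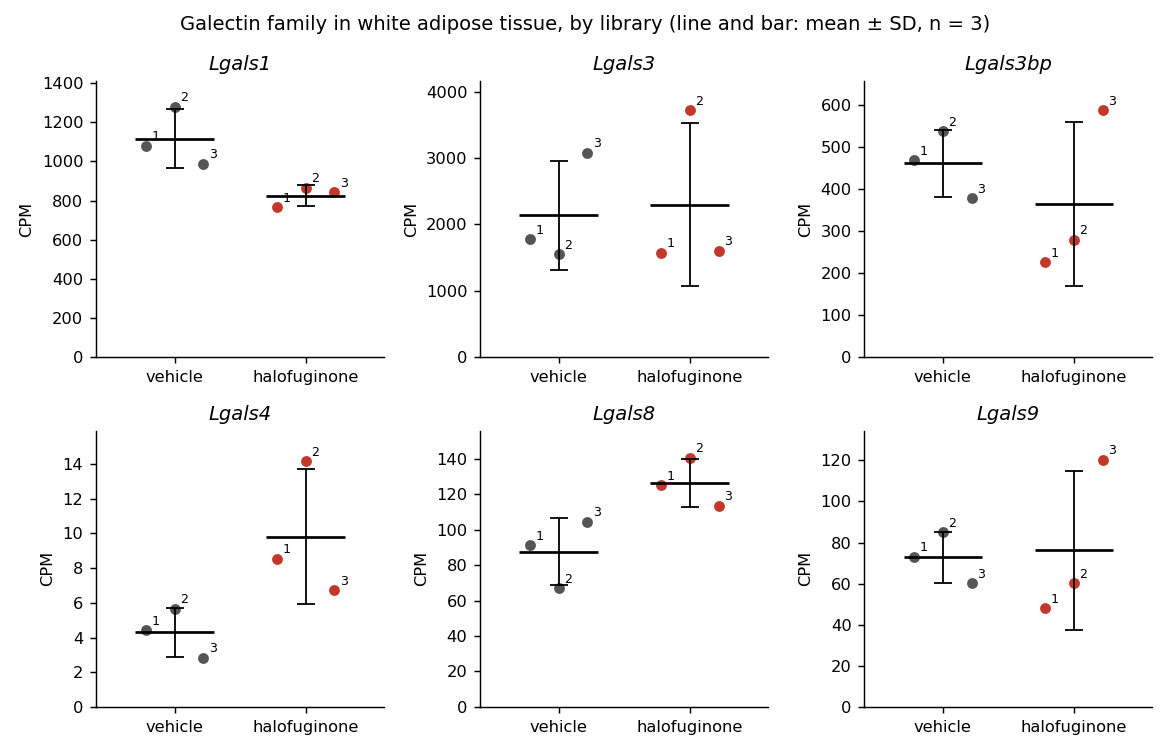
Level in CPM (y axis, from 0) of the 6 genes in each white adipose library, vehicle in grey and halofuginone in red, with replicate numbers beside the points and the mean ± SD of 3 libraries as a line and bar. The groups are apart for Lgals1, Lgals4 and Lgals8, and Lgals3 is set by 1 high library in each group.

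**Figure D4:**
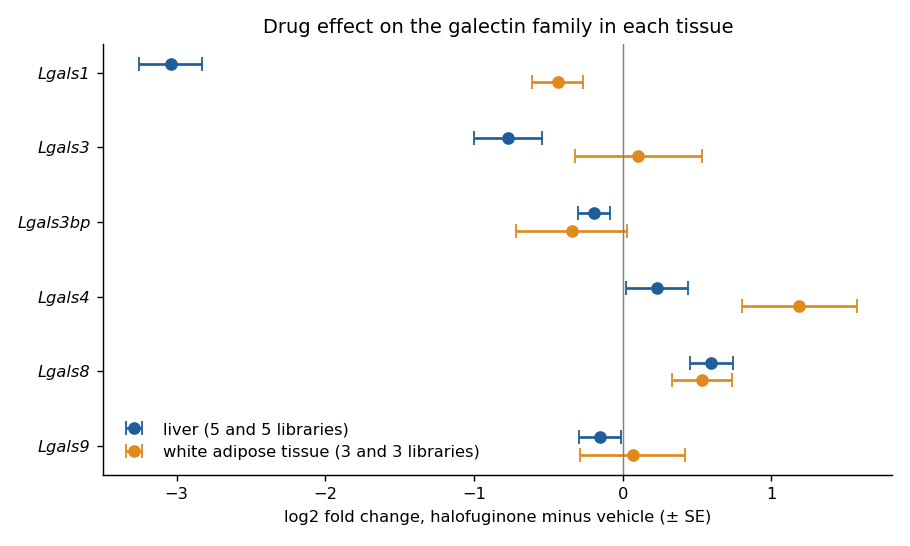
Log2 fold change of halofuginone over vehicle (x axis; point with SE bar) for each of the 6 genes (y axis) in liver (blue, 5 and 5 libraries) and white adipose tissue (orange, 3 and 3). Lgals1 in liver stands alone at −3.04, and the Lgals8 points lie next to each other at 0.60 and 0.53.

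Of the other galectin genes, 5 were in the tables. Lgals12, known as an adipocyte galectin on lipid droplets, had 0 counts in all 10 livers. A count of 0 allows up to 3 counts per library, which is 0.0938 to 0.148 CPM here, and covers counting error only. In fat Lgals12 was at 135, 150 and 66.5 CPM in vehicle and 90.0, 105 and 115 CPM under halofuginone (log2 fold change −0.18, SE 0.31, adjusted p = 0.845 in edgeR), and the groups overlapped. Lgalsl, a galectin-like gene without known sugar binding, was at 11.2 ± 3.60 and 13.4 ± 5.8 CPM in liver (SD, n = 5) and at 23.7 ± 9.30 and 33.0 ± 15.8 CPM in fat (SD, n = 3). Its log2 fold changes were 0.26 (SE 0.28) and 0.48 (SE 0.40), with adjusted p of 0.509 and 0.655 in edgeR. Lgals7, an epithelial galectin, had 0 counts in liver and 1.71 ± 0.612 and 1.11 ± 0.291 CPM in fat (n = 3, adjusted p = 0.625 in edgeR). Lgals2 did not pass the filter on low counts in either tissue, and the lens gene Grifin had 0 counts throughout.

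Galectins act through the glycoproteins they hold together, so 35 genes taken as binding partners were read in the same fits. Trim16 and Calcoco1, also on this list, do not encode such glycoproteins. In liver 32 of the 35 were tested, and 3 were higher and 5 lower under halofuginone, with a median log2 fold change of −0.25. Over all liver genes 12.7% were higher and 10.5% lower, so the partners' counts were near the background and are not a result about the list. Slc3a2, the CD98 heavy chain of amino acid transporters and a partner of galectin-3, averaged 39.7 ± 2.12 CPM in the vehicle livers and 82.7 ± 25.5 CPM in the treated ones (SD, n = 5), and rose by 1.06 on the log2 scale (SE 0.21, adjusted p = 0.0095 in edgeR). It too left halofuginone replicate 1 inside the vehicle range, at 38.7 CPM, and the log2 fold change was 1.22 without it. Itga5, a fibronectin receptor subunit that galectin-1 binds, went from 15.9 ± 1.78 to 27.2 ± 7.37 CPM, with all 5 treated livers above vehicle (log2 fold change 0.77, adjusted p = 0.0122 in edgeR).

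Among the partners that fell, Cd36, a fatty acid and lipoprotein receptor, went from 223 ± 21.8 to 67.3 ± 23.4 CPM (log2 fold change −1.73, SE 0.21, adjusted p = 0.0016 in edgeR), with all 5 treated livers below vehicle. Mcam, an adhesion molecule of vessels and pericytes, fell by 1.10 (SE 0.19) from 7.60 to 3.54 CPM, also with no overlap. Tfrc, the transferrin receptor, fell by 1.05 (SE 0.30), with replicate 1 inside the vehicle range, and by 1.37 without that library. Lamp1, a lysosomal membrane glycoprotein, and Lamb1, a laminin chain, fell by 0.40 and 0.57. Kdr, the VEGF receptor that galectin-1 binds, rose by 0.47 (SE 0.15, adjusted p = 0.0423 in edgeR), a call that 9 of the 10 libraries could each end by being left out and that the replicate block also ended. The call of Tfrc ended without any 1 of 6 libraries.

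In fat 34 partners were tested and none was called by edgeR, with 1 higher and 5 lower at an unadjusted p under 0.05, beside 13.4% of all genes in both directions, and a median log2 fold change of −0.09. The smallest p-values belonged to Fn1, fibronectin, at 844 ± 298 CPM without and 383 ± 122 CPM with the drug (SD, n = 3; log2 fold change −1.14, SE 0.33, adjusted p = 0.249 in edgeR), to Havcr2, which encodes the galectin-9 receptor Tim-3 (16.1 ± 12 and 4.50 ± 1.5 CPM, adjusted p = 0.269), and to Itgam, the integrin chain of myeloid cells (246 ± 197 and 72.9 ± 23.4 CPM, adjusted p = 0.283). In each of the 3 genes all treated libraries lay below all vehicle libraries, and 20.6% of all fat genes had groups that did not overlap. DESeq2 called all 3, with adjusted p of 0.0336, 0.0381 and 0.0359. It called 665 of 18532 genes tested in fat. The 3 had been picked by their edgeR p from the same counts, so this is no separate support.

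What galectins can bind is set by enzymes that branch N-glycans, extend them with galactose and N-acetyllactosamine, or cap them with sialic acid, and 31 of these were read. In liver 28 were tested, with 1 higher, 2 lower and a median log2 fold change of −0.11, where 12.7% of all genes were higher and 10.5% lower. The list as a whole thus held no more calls than the background. B3gnt2, which extends poly-N-acetyllactosamine chains, rose by 0.73 (SE 0.17, adjusted p = 0.0142 in edgeR) from 19.7 ± 3.94 to 32.6 ± 6.51 CPM, with all 5 treated livers above vehicle. The galactosyltransferases B4galt1 and B4galt5 changed by −0.72 (SE 0.16, adjusted p = 0.0140 in edgeR) and by −1.01 (SE 0.25, adjusted p = 0.0193), from 69.4 to 42.0 and from 36.2 to 17.9 CPM. The B4galt5 call ended without halofuginone replicate 3 (adjusted p = 0.0523 in edgeR). B4galt5 had halofuginone replicate 1 inside the vehicle range, and its log2 fold change was −1.25 without it. In liver Mgat5, the branching enzyme best known for making galectin ligands, was at 10.1 CPM in both groups (log2 fold change −0.0042, SE 0.19).

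In fat all 31 enzymes were tested and none was called by edgeR, with 4 higher and 2 lower at an unadjusted p under 0.05, beside 13.4% of all genes in both directions, and a median log2 fold change of 0.11. Gcnt2, which branches poly-N-acetyllactosamine, was at 66.1 ± 12.5 CPM without and 128 ± 16.9 CPM with the drug (n = 3, log2 fold change 0.95, SE 0.19, adjusted p = 0.159 in edgeR). The sialyltransferase St3gal4 was at 27.0 ± 0.993 and 41.7 ± 5.08 CPM (adjusted p = 0.187) and B4galt4 at 16.6 ± 2.67 and 26.6 ± 4.54 CPM (adjusted p = 0.249). The groups did not overlap for any of these 3, as for 20.6% of all genes, and DESeq2 called Gcnt2 (adjusted p = 0.0012) and St3gal4 (0.0112). DESeq2 called 665 of 18532 genes tested in fat. These enzymes too had been picked by their edgeR p from the same counts, so this is no separate support.

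Markers of the cell types that could hold these RNAs were summed per library, and their counts stand beside the 12.7% of all liver genes that were higher and the 10.5% that were lower. In liver, 6 of 12 tested mesenchymal and stellate markers were lower (Pdgfrb, Col1a1, Col1a2, Col3a1, Reln and Acta2) and none higher, and their sum was 279 to 394 CPM in vehicle and 186 to 305 CPM under halofuginone. Halofuginone replicate 1 had the 305 CPM, inside the vehicle range. Dcn, which was not called, was the largest part of the mesenchymal sum (means 181 CPM in vehicle, 147 CPM under halofuginone). For 4 of the 12 (Col1a1, Col3a1, Pdgfrb and Acta2) all 5 treated livers, replicate 1 included, lay below every vehicle liver. Groups did not overlap for 11.7% of all liver genes. Lgals1 in replicate 1 was at 6.95 CPM against 30.8 CPM in the lowest vehicle liver. None of 15 macrophage markers was called in liver, and their sum was 664 to 930 CPM in vehicle and 606 to 1117 CPM under halofuginone. The highest value belonged to replicate 1, the treated liver with the highest Lgals3. Of the lipid-associated macrophage markers, 4 of 10 were lower (Gpnmb, Mmp12, Atp6v0d2 and Spp1). Ctsl, a cathepsin that makes up most of the sum, was higher. The sum was 561 to 684 CPM in vehicle livers. Under halofuginone it was 563 CPM in replicate 1 and 3214 to 3622 CPM in replicates 2 to 5. The part of these cell types in the levels of Lgals1 and Lgals3 was not tested.

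Of the adipocyte list, 3 of 5 tested genes were lower in liver (Lipe, Fabp4 and Cfd), and the sum was 144 to 220 and 69.1 to 161 CPM. The endothelial list had 2 higher (Kdr and Clec4g) and 3 lower (Pecam1, Cdh5 and Vwf) of 8, with sums of 246 to 293 and 243 to 310 CPM. Of the hepatocyte list Tat was higher and Ttr and Hnf4a lower, and the sum under halofuginone was 41710 to 115859 CPM. Of 5 erythrocyte genes Alas2 was lower. No lymphocyte, bile duct and gut epithelium or mesothelium gene was called in liver, their sums staying at or under 12.9, 10.1 and 6.71 CPM, and skeletal muscle and epididymis genes reached at most 0.653 and 0 CPM. The lymphocyte sum of 12.9 CPM was halofuginone replicate 1. The other treated livers were at 1.45 to 2.97 CPM and the vehicle livers at 1.55 to 4.69 CPM.

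In fat edgeR called no gene of any marker list. Of all fat genes 13.4% had an unadjusted p under 0.05 and 20.6% had groups that did not overlap. At an unadjusted p under 0.05, 9 of 13 macrophage markers were lower, all 9 with no overlap, and the sum was 7557 to 15687 CPM in vehicle and 5758 to 6648 CPM under halofuginone. Likewise 6 of 12 mesenchymal markers and 4 of 10 lipid-associated macrophage markers were lower, and the mesenchymal sum was 5537 to 7027 and 3752 to 4303 CPM. Much of that sum was collagen RNA. Col1a1, Col1a2 and Col3a1 averaged 522, 876 and 1759 CPM in vehicle and 216, 477 and 598 CPM under halofuginone. Dcn, another large part, averaged 1557 and 1702 CPM, the only 1 of the 12 with a positive log2 fold change. The mesenchymal sum, like Lgals1, was below vehicle in all 3 treated libraries, and so were the macrophage and skeletal muscle sums. The part of these cell types in the Lgals1 level was not tested. Endothelial sums were 554 to 1413 and 1113 to 1559 CPM, adipocyte sums under halofuginone 22330 to 28266 CPM, lymphocyte sums 27.2 to 37.6 and 17.8 to 38.1 CPM, and mesothelium sums 35.1 to 87.7 and 9.34 to 52.9 CPM. Bile duct and gut epithelium genes, whose list bears on Lgals4, summed to 6.96 to 58.5 and 3.02 to 67.5 CPM. Hepatocyte sums (155 to 773 and 161 to 1043 CPM), erythrocyte sums (315 to 677 and 204 to 819 CPM), skeletal muscle sums (88.7 to 172 and 51.1 to 59.5 CPM) and epididymis sums (at most 74.9 and 7.98 CPM) complete the lists. Cyp2e1 held most of the hepatocyte sum (means 462 CPM in vehicle, 721 CPM under halofuginone), where Alb averaged 1.62 and 3.43 CPM. Acta1 held most of the skeletal muscle sum (means 118 and 48.9 CPM). The 74.9 CPM of epididymis genes was vehicle replicate 3, against 0.540 and 0.166 CPM in vehicle replicates 1 and 2. That library, also the highest vehicle library in Lgals3, had the lowest adipocyte sum (13255 CPM) and highest macrophage sum (15687 CPM) in fat.

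The genes whose pattern was most like that of Lgals1 and Lgals3 were taken by Pearson's r of log2 CPM over all libraries of a tissue. In liver (n = 10) those near to Lgals1 included Themis (r = 0.987) and Gfm2 (0.984). With the group means removed these fell to 0.659 and 0.635, so much of the likeness lay in the difference between the groups. Themis averaged 2.60 CPM in vehicle livers and 0.104 CPM under halofuginone, near the level of 3 counts (0.0938 to 0.148 CPM). Those nearest to Lgals3 were Mmp12, a macrophage elastase (r = 0.971), Mapk15 (0.967) and Clic1 (0.967), and with the group means removed r was 0.935, 0.925 and 0.967. In fat (n = 6) B4galt2, a galactosyltransferase (0.997), Insig1, a brake on sterol synthesis (0.992), and Kank2 (0.992) were nearest to Lgals1, and Galnt6 (0.996), Dnase1l1 (0.992) and Il11ra1 (0.990) to Lgals3. The libraries share depth and tissue make-up, and these are descriptions of a few libraries.

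Between members, the strongest negative pairs in liver were Lgals3 with Lgals8 (r = −0.86 over 10 libraries, −0.68 with the group means removed) and Lgals1 with Lgals8 (−0.83 and −0.46). In fat Lgals1 and Lgals8 stood at −0.92 over 6 libraries and −0.76 with the group means removed. Lgals1 and Lgals3 stood at 0.79 in liver and −0.15 in fat, and at 0.49 and −0.22 with the group means removed.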

How the data were processed

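Poly(A) RNA of 10 liver and 6 white adipose libraries was sequenced, per the labels' protocols. Per the file headers, the authors deposited whole-number counts and FPKM (counts per gene length and library size) for 22322 genes in each tissue. The submitters' processing notes name fastp 0.18.0, Bowtie2 2.2.8, HISAT2, StringTie 1.3.1, RSEM and the build mm39. The strand used in counting is not given in the sources used here. Per library, 1 to 31 genes with 0 counts had an FPKM above 0, and whether the counts are rounded estimates is not stated.

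Each tissue was fitted alone on the deposited counts with edgeR 4.0.16 under R 4.3.3 (TMM after filterByExpr, glmQLFit, glmQLFTest, two-sided, Benjamini-Hochberg over all genes tested, called at an adjusted p under 0.05). SE is the absolute log2 fold change over the square root of F. CPM uses TMM-scaled library sizes, and log2 CPM for correlations a prior count of 2. The fitting code was tested on simulated data. No pair of libraries agreed within sampling noise. Groups came from the sample titles. The 6 genes, the gene lists and the tests were chosen with earlier results of these data known. Named genes were the 6, other galectins of at least 1 FPKM in any group, the 3 largest called rises and falls of the partner and enzyme lists (where none was called, the 3 smallest p), and the 3 nearest patterns to Lgals1 and Lgals3, of which 1 is not reported here. Lamp1, Lamb1, Mgat5, Lgals2 and Grifin were named after their values were seen. Alternatives were DESeq2 1.42.0, limma 3.58.1 on log2(FPKM + 1) and log2(FPKM + 0.1), other scalings and filters, an absolute log2 fold change above 1, a replicate block, and leaving out each library.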

Additional observations from a re-analysis of the deposited data

Results flagged for a closer look

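Lgals3 in liver halofuginone replicate 1 stood far from the other 4 treated livers, at 13.6 CPM against 8.22 CPM in the nearest. The gap was 0.762 of the group's range, above Dixon's limit of 0.71 for 5 libraries. Chance alone flags about 1 in 20 such groups, and 14 were looked at.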

How the results depend on the processing

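In liver 2850 genes were called. Requiring an absolute log2 fold change above 1 gave 693, and leaving out 1 library gave 1275 (without halofuginone replicate 3) to 5312 (without halofuginone replicate 1). Scaling by library size alone called 76.9% of its genes higher, against 54.7%. In fat, where 0 were called, DESeq2 gave 665, limma on log2(FPKM + 1) 13, no filter on low counts 1, and leaving out 1 library 0 to 1. The replicate block gave 1901 genes in liver and 0 in fat. The replicate numbers showed no clear pairing of the libraries. With the group means removed, same-numbered libraries correlated at −0.16 to 0.06 in liver and −0.57 to 0.11 in fat. Of the libraries, 3 of 10 and 1 of 6 correlated best with their own number. With so few libraries per group, this check cannot exclude a pairing or a shared batch.

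Under the 17 alternatives in liver the log2 fold change of Lgals1 was −3.19 to −2.69 and that of Lgals8 0.53 to 0.76, and that of Lgals3 −1.01 to −0.58, as a description. None of the 6 passed in fat under any of 13. Signs turned for liver Lgals9 with library size alone (0.0031), fat Lgals9 with the replicate block (−0.044), and, leaving out single libraries, liver Lgalsl (−0.041 to 0.48), fat Lgals3 (−0.39 to 0.47), fat Lgals9 (−0.41 to 0.31) and fat Lgals12 (−0.46 to 0.040). The cause was not tested. With 3 libraries a group in fat, a Lgals1 difference of the size seen (−0.44, SE 0.17) did not pass.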
